A study of Mus musculus with 29 samples.

Results

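The homeostatic microglia genes are genes whose high expression marks the resting microglia of the healthy brain. The members were named as known markers of that state. They were P2ry12, Tmem119, Cx3cr1, Sall1, Olfml3, Gpr34, Csf1r, Fcrls and Aif1, which are 9 of the 48709 Ensembl gene identifiers in the count tables. All 9 passed the filter on low counts in each of the 9 comparisons.

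The data were RNA-seq read counts of 29 mouse libraries, made to ask which genes respond when the microRNA miR-99b-5p is inhibited. The inhibitor, called anti-miR-99b, is an oligonucleotide of locked nucleic acid (LNA), and the control, sc-control, is a scrambled LNA. The level of miR-99b-5p itself, which libraries of polyadenylated RNA do not measure, was not analysed here. In the first experiment either LNA, carried by lipid nanoparticles, was injected into the prefrontal cortex (PFC) of male C57BL/6J mice aged 3 months, and the tissue was taken 5 days later from 3 anti-miR-99b and 3 sc-control mice. In the second, primary microglia prepared from CD1 pups at postnatal day 1 received either LNA for 48 h, with 4 libraries per treatment. In the third, CD1 microglia that had received either LNA for 48 h were placed for 48 h on untreated cortical neurons from CD1 embryos at day 17.5, and whole co-cultures were sequenced, 7 of anti-miR-99b and 8 of sc-control microglia. The microglia were shaken off mixed glia and grown in medium conditioned by L929 cells, a fibroblast line that secretes the ligand of Csf1r. Neither the co-cultures nor the PFC were sorted, so that the RNA of microglia was a small share of all RNA there. The labels do not say whether the libraries of cultured cells came from separate preparations, and p-values then measure the spread between these libraries, which may be technical. Strain, age and preparation differ between the PFC and the cultures and cannot be told apart from the system.

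Microglia are the resident macrophages of the brain, and they descend from yolk sac precursors. In the healthy brain they survey the tissue with moving processes, clear debris and prune synapses. They depend on Csf1r signalling for survival, and on transforming growth factor beta and contact with the brain for the homeostatic programme, much of which is lost when the cells are taken into culture. Among the members, Csf1r is the receptor for Csf1 and Il34. Cx3cr1 is the receptor for the neuronal chemokine fractalkine (Cx3cl1), P2ry12 is the purinergic receptor that steers processes towards ATP and ADP, and Gpr34 is a receptor for lysophosphatidylserine. Tmem119 is a membrane protein, Fcrls an Fc receptor-like protein of mouse microglia, and Olfml3 a secreted matrix protein. Sall1 is the transcription factor that maintains microglial identity, and it is also expressed by neural progenitor cells. Aif1 encodes Iba1, the actin-binding protein used as a stain for microglia and macrophages alike. Csf1r, Cx3cr1 and Aif1 are shared with other macrophages.

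The mature microRNA that was inhibited is shown with its seed, bases 2 to 8 and the part that pairs with targets, in capitals. The sequence is from RefSeq, and it lies on the plus strand of GRCm38.p6 at chr17:17830194-17830215.
mmu-miR-99b-5p: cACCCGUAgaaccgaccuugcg
The 7 bases that pair with the seed, TACGGGT, were in the longest annotated 3′ UTR of 0 of the 9 members and of 1.11% of 20832 genes. The shorter match to bases 2 to 7, ACGGGT, was in 1 of 9 members, Tmem119, and in 5.52% of these genes. The site in Tmem119 is shown with the match in capitals. It is on the minus strand of GRCm38 at chr5:113793955-113793980, and the first base of the match is base 926 after the stop codon.
Tmem119 site: ctagaagccaACGGGTgcctgggggc
A match is a description of letters, and it says nothing on whether a site is used.

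Microglial genes are often bound by PU.1, whose core motif GAGGAA is named here by its letters, and by Mef2 factors. The Mef2 core is CTA and TAG with 4 bases between them, each A or T, and the search let these 4 be any base. Promoter windows from 250 bases before to 50 after the start, from RefSeq on GRCm38.p6, were read on both strands for the 6 members that the table holds (P2ry12, Cx3cr1, Sall1, Olfml3, Fcrls and Aif1). GAGGAA was in the windows of Fcrls and Aif1 and in 28.3% of 32851 promoters. The letters CTA and TAG with any 4 bases between them were in that of Cx3cr1 and in 3.69% of promoters. In Cx3cr1 these 4 bases are AAGA, so that its stretch is not the Mef2 core itself. The letters GGAA and GAAA with 2 bases between them were in none of the 6 members and in 2.72%. The 3 stretches are on the minus strands at chr9:120068344-120068373, chr3:87263653-87263678 and chr17:35176044-35176069, with the match in capitals, and that of Aif1 is the reverse complement.
Cx3cr1: gtcacagcatCTAAAGATAGggtaccacac
Fcrls: agtctgtaaaGAGGAAggacgtttgc
Aif1: aggcacccagTTCCTCcatcctattg

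On GRCm38 the genes lie on chromosome 3 (P2ry12, 59216272 to 59262871, Olfml3, 103722222 to 103738001, and Fcrls, 87250758 to 87263738), chromosome 5 (Tmem119, 113793729 to 113800516) and chromosome 8 (Sall1, 89027235 to 89044162). Cx3cr1 is on chromosome 9 (119901616 to 120069879), Aif1 on chromosome 17 (35170991 to 35176068), Csf1r on chromosome 18 (61100598 to 61132149) and Gpr34 on chromosome X (13632089 to 13640858). Csf1r and Gpr34 are on the plus strand and the other 7 on the minus strand. Exons of P2ry12 share 9 bases with Med12l on the opposite strand and those of Csf1r share 873 bases with Hmgxb3.

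Reads on genes ranged from 21324156 to 37901110 per library, and no library was a copy of another. In the cultured microglia the summed level of 8 neuronal markers was 137 ± 3.69 CPM (SD, n = 4, sc-control), against 9395 ± 308 CPM in the PFC (n = 3) and 7992 ± 92.1 CPM in the co-cultures (n = 8), where CPM is the read count scaled to the library size with edgeR's TMM factors. Each member had reads in every library. Mrc1 and Ms4a7, which also mark border macrophages, averaged 248 and 246 CPM in the cultured microglia, and the other 6 of 8 genes of the border macrophage and monocyte list were lower: Pf4 at 33.2, F13a1 at 6.17, Ccr2 at 2.14, Cd163 at 0.539, Lyve1 at 0.0595 and Ly6c2 at 0.0311 CPM.

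The members were compared first between the sc-control libraries of the 3 systems. In cultured microglia, Csf1r, Fcrls and Cx3cr1 were the most abundant members, and in the co-cultures 6 members were below 2 CPM per kilobase. Levels are given as CPM per kilobase of exon, so that genes of different length can be set side by side. Csf1r was at 638, 600, 642 and 616 CPM per kilobase in the 4 microglia libraries and at 21.3, 21.8 and 25.9 in the 3 PFC libraries. In the 8 co-cultures it had a lowest value of 1.29, a median of 1.52 and a highest of 1.75 CPM per kilobase. Each system was thus apart from both others for this receptor, and the mean in co-culture was 0.244% of that in microglia. In bulk libraries such as these, fewer microglia and less RNA of a gene per microglial cell cannot be told apart.

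Cx3cr1 was at 351, 358, 362 and 360 CPM per kilobase in microglia, at 12.2, 11.8 and 13.9 in the PFC, and between 1.54 and 2.44 (median 1.96) in co-culture. P2ry12, the purinergic receptor, was nearer between culture and tissue, at 27.6, 29.8, 29.3 and 32.2 CPM per kilobase in microglia and at 12.1, 9.56 and 15.4 in the PFC. In co-culture it was between 0.148 and 0.305, median 0.234 CPM per kilobase. The libraries of the systems did not overlap for either receptor.

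Tmem119 was the member that was lower in cultured microglia than in tissue, at 7.02, 6.99, 8.34 and 7.05 CPM per kilobase against 11.8, 10.8 and 14.2 in the PFC. In co-culture it was between 0.109 and 0.341 CPM per kilobase, with a median of 0.167. Sall1 varied least between systems, at 6.82, 7.91, 8.62 and 8.44 CPM per kilobase in microglia, 4.53, 4.87 and 5.30 in the PFC, and between 5.26 and 5.61 in co-culture. The co-culture and PFC libraries overlapped for Sall1, and the microglia libraries were above both.

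Fcrls was at 518, 506, 535 and 531 CPM per kilobase in microglia and at 13.9, 15.2 and 22.1 in the PFC, and it was between 12.8 and 15.3 (median 14.1) in co-culture. Its co-culture and PFC libraries overlapped. Aif1 was at 181, 169, 165 and 178 CPM per kilobase in microglia, at 5.33, 4.65 and 6.25 in the PFC and between 7.20 and 9.53 in co-culture, so that the 3 systems were apart. Olfml3 averaged 31.7 ± 1.12 in microglia, 4.90 ± 0.769 in the PFC and 0.279 ± 0.0233 CPM per kilobase in co-culture, and Gpr34 averaged 40.3 ± 4.76, 5.47 ± 1.66 and 0.210 ± 0.0860 (SD, n = 4, 3 and 8). Both were highest in microglia and lowest in co-culture in every library.

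**Figure D1:**
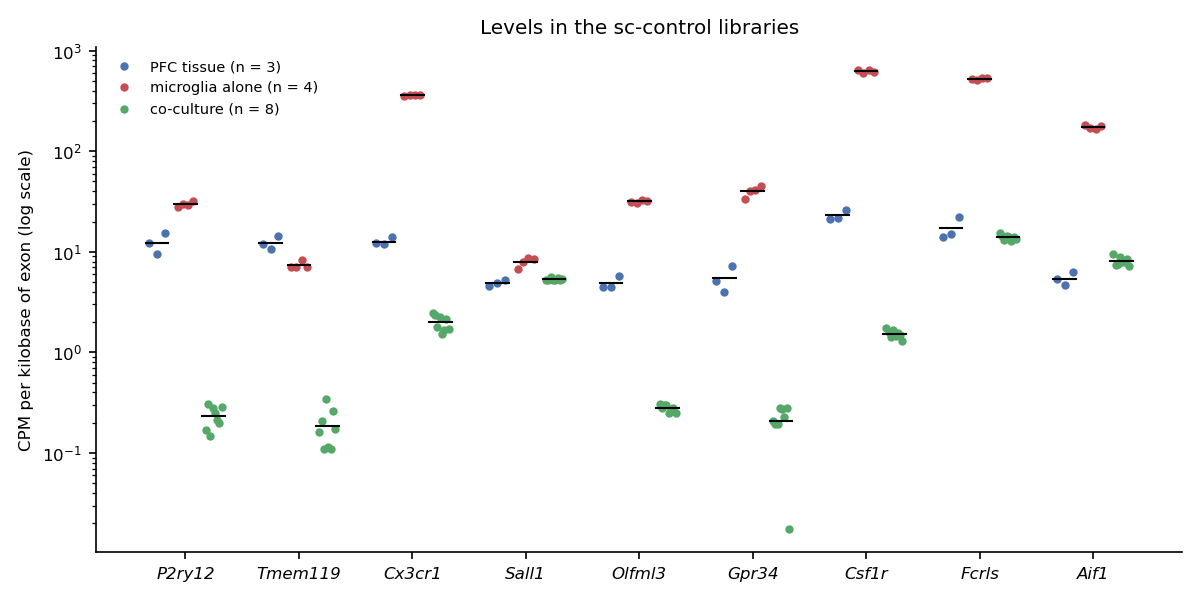
The level of each member in the sc-control libraries of the 3 systems, in CPM per kilobase of exon on a log axis, with 1 point per library and a bar at the mean. The microglia points sit highest for each member except Tmem119 (highest in the PFC), and the co-culture points sit near those of the PFC for Sall1, Fcrls and Aif1 and below them for the other 6 members.

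Ranked by mean level, the members in cultured microglia ran Csf1r, Fcrls, Cx3cr1, Aif1, Gpr34, Olfml3, P2ry12, Sall1 and Tmem119, and the libraries of neighbours overlapped only for Olfml3 with P2ry12 and for Sall1 with Tmem119. In the PFC the order was Csf1r, Fcrls, Cx3cr1, P2ry12, Tmem119, Gpr34, Aif1, Olfml3 and Sall1, and only Tmem119 and Gpr34 were neighbours that did not overlap. In co-culture it was Fcrls, Aif1, Sall1, Cx3cr1, Csf1r, Olfml3, P2ry12, Gpr34 and Tmem119. There the pairs from Cx3cr1 to Csf1r and from Olfml3 downwards overlapped. Csf1r led in microglia and PFC and was the fifth in co-culture.

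At a log2FC beyond 1 and an adjusted p-value under 0.05, 8 of 9 members were higher in microglia than in co-culture, beside 24.3% of all 18274 genes tested that were higher and 59.5% that differed in either direction. The log2FC ran from 4.41 for Aif1 (standard error 0.05, adjusted p = 2.59e-30) to 8.68 for Csf1r (0.06, adjusted p = 2.52e-34). Sall1 had a log2FC of 0.57 (0.05, adjusted p = 4.27e-11), which is within the fold limit. Against the PFC, 7 members were higher in microglia, beside 26.4% of all genes that were higher and 63.4% in either direction, with log2FC from 1.26 for P2ry12 (0.09, adjusted p = 1.51e-12) to 4.99 for Aif1 (0.08, adjusted p = 2.47e-27). Sall1 (0.70, standard error 0.06) and Tmem119 (−0.74, standard error 0.09) stayed within the limit. The median log2FC over the members was 6.82 against co-culture and 2.87 against PFC, beside −0.17 and −0.15 over all genes.

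In co-culture against PFC, 6 members were lower, beside 20.5% of all genes that were lower and 35.4% in either direction. The largest differences were those of Tmem119 (log2FC −6.03, standard error 0.13) and P2ry12 (−5.76, standard error 0.14), followed by Gpr34 (−4.69), Olfml3 (−4.13), Csf1r (−3.91) and Cx3cr1 (−2.67). Sall1 had 0.13 (0.06), Fcrls −0.29 (0.08) and Aif1 0.58 (0.08). Expressed as means, co-culture held 1.51% of the PFC level of Tmem119, 15.7% of that of Cx3cr1 and 81.6% of that of Fcrls.

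To set the members against the amount of myeloid RNA, each was also expressed per 1000 reads on 13 genes of general myeloid function (such as Ptprc, Itgam, Spi1, Lcp1 and Cd68), a scaling added after the data were seen because Coro1a, the other gene of that list, made up much of the list's reads in the PFC and in co-culture and few in microglia. The 14 genes of the whole list differed among themselves. For co-culture against PFC their log2FC on the TMM scale ran from −3.03 to 1.15, with 4 called lower and 1 higher. Their summed reads are thus an uneven measure of myeloid RNA between systems. Relative to the 13 genes most members were highest in the PFC. P2ry12 stood at 99.4 ± 11.2 reads per 1000 in the PFC, 5.99 ± 0.364 in microglia and 3.48 ± 0.942 in co-culture (SD, n = 3, 4 and 8). Tmem119 was at 90.8 ± 10.5, 1.35 ± 0.126 and 2.49 ± 1.08. Olfml3, at 96.3 ± 9.24, 15.4 ± 0.507 and 10.1 ± 0.735, and Gpr34, at 35.6 ± 3.85, 6.66 ± 0.775 and 2.54 ± 1.04, had the same order of PFC, microglia and co-culture as P2ry12.

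The receptors Csf1r and Cx3cr1 differed less between PFC and microglia relative to the reference genes. Csf1r was at 426 ± 59.0 reads per 1000 in the PFC and 285 ± 8.90 in microglia, against 51.5 ± 3.33 in co-culture, and Cx3cr1 at 184 ± 28.4, 128 ± 2.15 and 52.1 ± 6.68. Fcrls and Aif1 were highest in co-culture, at 190 ± 8.20 and 72.7 ± 4.27 reads per 1000, against 96.43 ± 2.203 and 20.997 ± 0.807 in microglia. Sall1 was at 166 ± 13.3 in co-culture, 83.4 ± 14.8 in the PFC and 3.31 ± 0.341 in microglia.

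Directions between the systems therefore depended on the scale. With libraries scaled to all 14 reference genes, the median log2FC of all genes moved to −5.71 for microglia against co-culture, −5.01 for microglia against PFC and 0.70 for co-culture against PFC. Relative to these genes, 4 members turned to lower in microglia than in co-culture (Tmem119, Sall1, Fcrls and Aif1) and 6 to lower in microglia than in PFC (P2ry12, Cx3cr1, Sall1, Olfml3, Gpr34 and Csf1r). The same 6 and 4 turned with 13 genes, and Fcrls and Aif1 did so too against PFC. For co-culture against PFC, Fcrls turned to higher with either set, and P2ry12, Tmem119, Cx3cr1, Olfml3, Gpr34 and Csf1r kept lower values in co-culture with both.

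**Figure D2:**
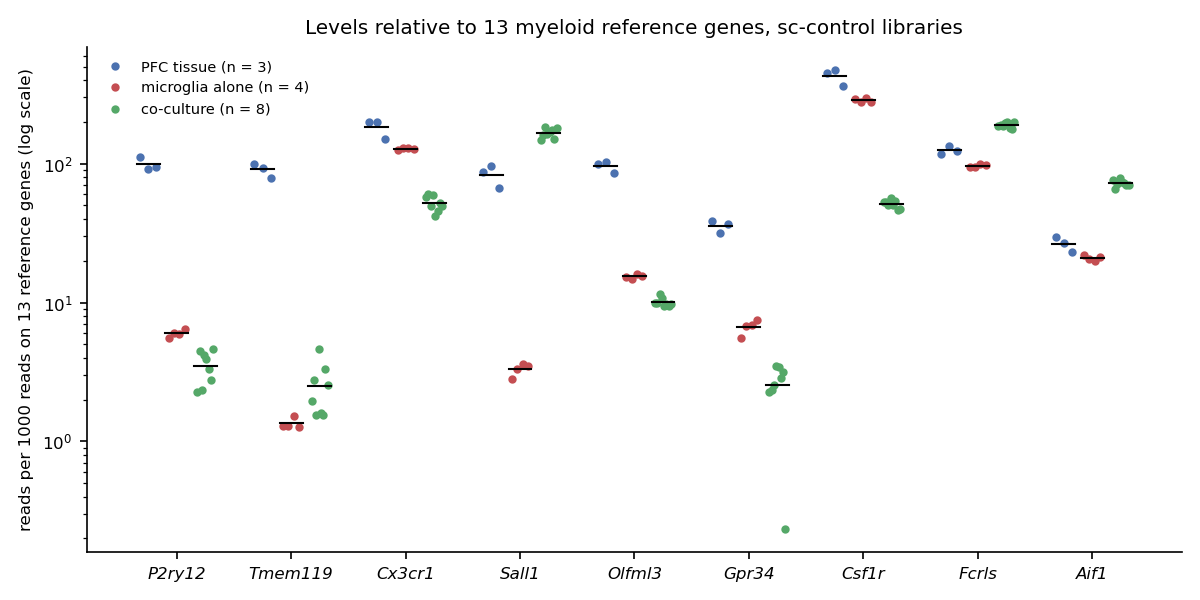
Reads of each member per 1000 reads on 13 myeloid reference genes in the sc-control libraries, on a log axis, with 1 point per library and a bar at the mean. On this scale the PFC points are highest for P2ry12, Tmem119, Cx3cr1, Olfml3, Gpr34 and Csf1r, while Sall1, Fcrls and Aif1 are highest in co-culture.

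The other genes of the homeostatic programme, from a list of 20 (such as Siglech, P2ry13 and Selplg), did not all follow the members. Of these, 15 were higher and 2 lower in microglia than in co-culture, and 10 were higher and 5 lower in microglia than in PFC. Siglech, a lectin typical of microglia, was (scaled within each experiment) at 19.1 ± 1.68 CPM in the PFC, 0.183 ± 0.104 in microglia and 0.0225 ± 0.0293 in co-culture. All 10 genes of the disease-associated and culture-activated list were higher in microglia than in either other system. Their median log2FC was 6.50 against PFC and 7.09 against co-culture. All 14 myeloid reference genes were higher too, with medians of 5.80 and 6.15 on the same TMM scale. Of all genes, 26.4% were higher in microglia than in PFC and 24.3% higher than in co-culture. Of 11 TGF-beta pathway genes, 5 were higher in microglia than in PFC and 1 was lower, with Tgfb1 at 5.54 (standard error 0.08).

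Cx3cl1 and Il34, ligands of the member receptors, were lowest in the cultured microglia. Scaled within each experiment, Cx3cl1, the ligand of Cx3cr1, was at 1046 ± 77.0 CPM in the PFC, 276 ± 5.92 in co-culture and 3.72 ± 0.212 in microglia. Il34 was at 74.8 ± 2.31, 3.27 ± 0.230 and 0.161 ± 0.0836 CPM in the same order, a log2FC of −4.50 (0.05) for co-culture against PFC. Csf1 was at 36.6 ± 4.74, 23.1 ± 1.25 and 22.6 ± 1.06 CPM.

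The effect of anti-miR-99b was then compared within each system. Csf1r, Cx3cr1 and Olfml3 were higher in co-cultures with anti-miR-99b microglia than with sc-control microglia, by 1.26 to 1.37 times, and no member was called lower. These were 3 of 9 members at a log2FC beyond 0.1 and an adjusted p-value under 0.05, beside 0.846% of the 16193 genes tested that were higher and 1.4% in either direction. With no adjustment, 5 members had a p-value under 0.05, beside 13.2% of all genes. The median log2FC over the members was 0.25, beside 0.0025 over all genes, and 8 of 9 had a positive log2FC, beside 51.6%.

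Csf1r, the receptor on which microglia depend for survival, was at a lowest 7.72, a median 9.08 and a highest 10.5 CPM in the 8 sc-control co-cultures. In the 7 anti-miR-99b co-cultures it was at a lowest 11.0, a median 11.5 and a highest 12.0 CPM. Every anti-miR-99b library was above every sc-control library, as was so for 0.303% of all genes, and Csf1r was the only member of the 9 for which the groups did not overlap. The means were 11.5 ± 0.347 (SD, n = 7) and 9.15 ± 0.896 (SD, n = 8), a log2FC of 0.34 (standard error 0.05, 95% confidence interval 0.23 to 0.45, edgeR adjusted p = 0.00101). The bases shared with Hmgxb3, on the opposite strand, are 15.1% of the exon length of Csf1r, and the strand setting of the counting is not given in the sources used here. Hmgxb3 was at 46.1 ± 2.24 and 47.7 ± 2.01 CPM, with a log2FC of −0.05 (0.03, adjusted p = 0.582).

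Cx3cr1, the fractalkine receptor, was at 7.19, 9.13 and 11.4 CPM (lowest, median and highest) with sc-control and at 11.3, 12.2 and 13.8 CPM with anti-miR-99b. In 5 of 7 anti-miR-99b libraries it was above every control, so that the groups touched at the edge. The log2FC was 0.39 (0.08, edgeR adjusted p = 0.0107). Olfml3 was at 1.59, 1.80 and 1.96 CPM with sc-control and at 1.76, 2.55 and 2.82 with anti-miR-99b, from 41 to 85 reads per library. In 6 of 7 anti-miR-99b libraries it was above every control, and the log2FC was 0.45 (0.10, edgeR adjusted p = 0.0121). With the lane as a block all 3 were called, and each was higher in 4 of 4 lanes, with ratios of 1.16 to 1.41 for Csf1r, 1.05 to 1.75 for Cx3cr1 and 1.22 to 1.53 for Olfml3. Lanes 4 and 7 held 2 and 3 anti-miR-99b libraries, against 2 sc-control libraries each. Lane 5 held 1 against 3 and lane 6 held 1 against 1. The highest ratios of Cx3cr1 and Olfml3 were those of lane 6.

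Gpr34 and Sall1 had unadjusted p-values under 0.05 without passing the adjustment. Gpr34 was at 0.0379, 0.473 and 0.619 CPM with sc-control and at 0.558, 0.637 and 0.936 with anti-miR-99b, from 1 to 29 reads per library. The log2FC of 0.68 (0.24, 95% confidence interval 0.20 to 1.17) had an edgeR adjusted p = 0.172, and without sc-control replicate 12, the library with 1 read, the log2FC was 0.52 (adjusted p = 0.198). Sall1 was the member with a negative value, at 28.67, 29.01 and 30.61 CPM with sc-control and 25.6, 27.4 and 29.3 with anti-miR-99b. In 6 of 7 anti-miR-99b libraries it was below every control, with a log2FC of −0.10 (0.03, edgeR adjusted p = 0.143). Gpr34 was higher and Sall1 lower in 4 of 4 lanes.

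The remaining members were not called. Fcrls was at 34.8 ± 3.16 CPM with anti-miR-99b and 33.8 ± 1.97 with sc-control, a log2FC of 0.04 whose interval ran from −0.06 to 0.14. Aif1 was at 14.1 ± 1.62 and 12.9 ± 1.25 CPM (0.12, interval −0.01 to 0.26). P2ry12 and Tmem119 rested on 12 to 23 and 6 to 24 reads per library, and their intervals, −0.11 to 0.60 and −0.47 to 0.59, were wide.

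**Figure D3:**
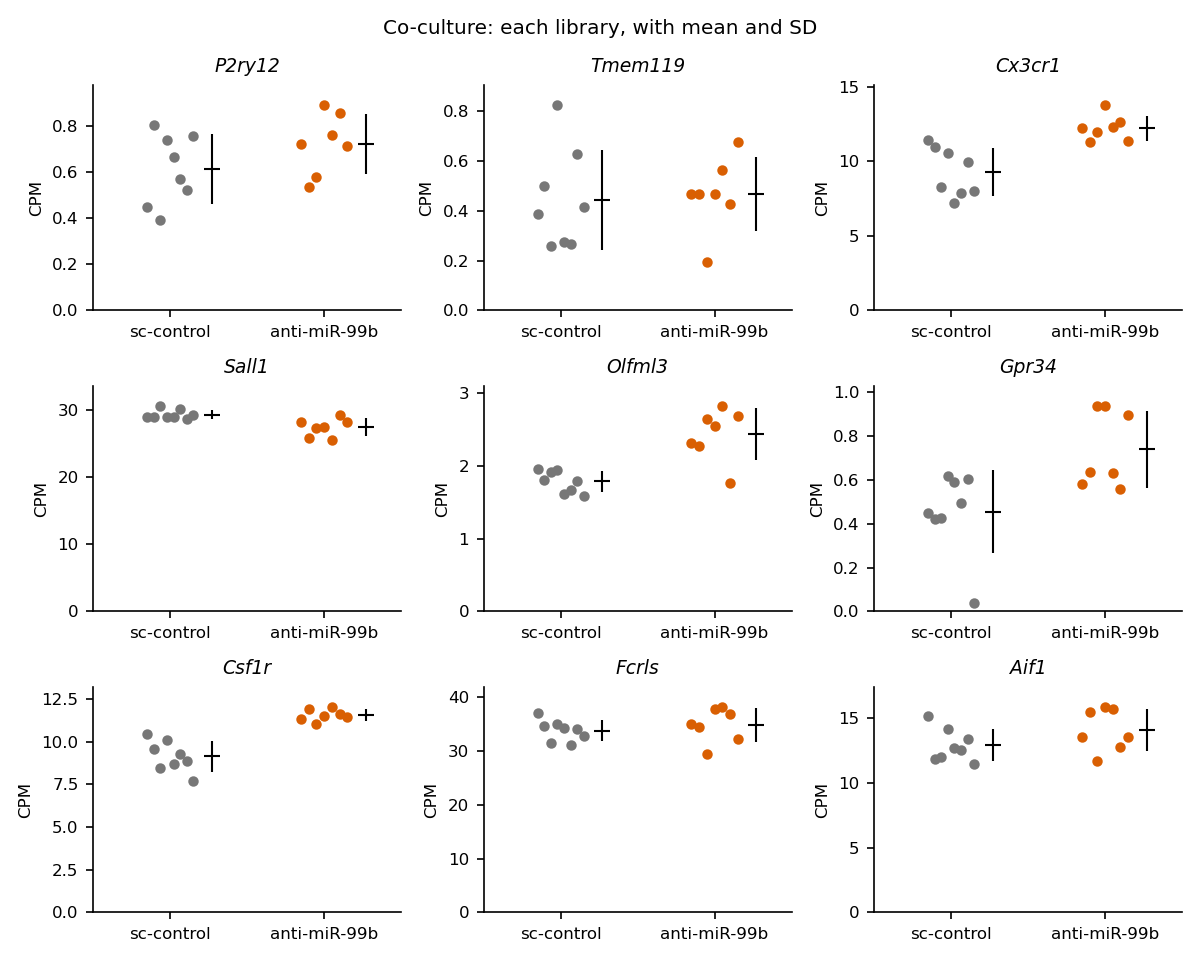
CPM of each member in the 15 co-culture libraries, 1 point per library with a bar at the mean, sc-control beside anti-miR-99b, each panel with its own linear axis. The 7 anti-miR-99b points for Csf1r (11.0 to 12.0 CPM) lie above all 8 sc-control points (7.72 to 10.5 CPM), and the points of the other 8 members overlap between the treatments.

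Sums of other myeloid RNA were also higher by the means in the co-cultures, with groups that overlapped. The sum of the 13 reference genes was 201 ± 13.7 CPM with anti-miR-99b and 178 ± 11.7 with sc-control, 13.4% higher. That of all 14 genes was 313 ± 11.6 and 287 ± 14.6 CPM, 8.85% higher. Of the 14 genes, 4 were called higher, among them Cd68 (log2FC 0.43, 0.05, edgeR adjusted p = 3.01e-05), and 10 were not called. The border macrophage and monocyte list had 3 of 8 genes tested and 1 called, Ms4a7 (0.50, 0.07, adjusted p = 0.000393). Its summed level was 13.8 to 17.1 CPM with anti-miR-99b and 10.1 to 14.0 with sc-control, 34.2% higher by the means. Most of these reads were on Ms4a7, at 214 to 467 reads per library, followed by Mrc1 at 15 to 35, Pf4 at 5 to 18 and Lyve1 at 1 to 11. F13a1 had 1 to 9 reads, Cd163 0 to 6, Ccr2 0 to 2 and Ly6c2 0 to 1. The part of such cells in the result was not tested. The neuronal marker sum was 7981 ± 53.7 and 7992 ± 92.1 CPM. With libraries scaled to all 14 reference genes, which set the median of all genes at −0.12, Csf1r had a log2FC of 0.22, Cx3cr1 0.27, Olfml3 0.34 and Gpr34 0.57, and Sall1 had −0.22. All 5 were then called, while Tmem119 and Fcrls turned to negative values. At that point 120 of all genes were called higher and 5976 lower, against 137 and 90 with TMM. With the 13 genes the median of all genes was −0.18, and 6 members were called, 4 of them higher. Of all genes, 90 were then called higher and 9763 lower. Over all alternative settings the lowest log2FC were 0.16 for Csf1r, 0.22 for Cx3cr1, 0.28 for Olfml3 and 0.51 for Gpr34.

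Among the lists around the members, the disease-associated genes had the most calls in co-culture, with 5 of 9 genes tested called higher and 0 lower. Spp1, a secreted phosphoprotein of activated microglia, was at 37.0 ± 5.52 CPM with anti-miR-99b and 20.3 ± 3.71 with sc-control (0.87, 0.09, adjusted p = 7.74e-06). Gpnmb (0.47), Lpl (0.17) and Clec7a (0.69) were others. Of the other homeostatic genes, 1 of 14 tested was called, Csf3r, at 2.21 ± 0.329 and 1.43 ± 0.243 CPM (0.63, 0.11, edgeR adjusted p = 0.00374). The median of that list was 0.0079, and 8 of the 14 had a positive log2FC. At an unadjusted edgeR p-value under 0.05 it had 6 genes, beside 13.2% of all genes. With edgeR 0 of 11 TGF-beta pathway genes and 0 of 8 microglia transcription factors were called, with 4 and 0 at an unadjusted p-value under 0.05. The ligands Csf1 (−0.02), Cx3cl1 (−0.04) and Il34 (−0.10) were not called.

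In the microglia cultured alone, 0 of 9 members were called at a log2FC beyond 0.1 and an adjusted p-value under 0.1, beside 0.488% of the 14953 genes tested. With no adjustment 0 members had a p-value under 0.05, beside 6.45% of all genes, and DESeq2 called 0. The counts were deep here, and the values of the treatments lay close together. Csf1r was at 3351 ± 50.7 CPM with anti-miR-99b and 3245 ± 128 with sc-control (SD, n = 4 each), Cx3cr1 at 1463 ± 15.8 and 1452 ± 14.5, and Olfml3 at 178 ± 7.95 and 176 ± 5.18. P2ry12 was at 68.3 ± 1.96 and 68.1 ± 3.31 CPM, Tmem119 at 16.0 ± 1.09 and 15.3 ± 1.37, and Sall1 at 38.2 ± 2.84 and 37.6 ± 3.39. Gpr34, Fcrls and Aif1 were at 74.4 ± 6.98, 1120 ± 28.1 and 243 ± 3.37 with anti-miR-99b and at 75.7 ± 7.81, 1097 ± 22.9 and 239 ± 11.9 with sc-control. The groups overlapped for all 9, and the treatments did not overlap for 3.44% of all genes. The 95% confidence intervals of all 9 fold changes lay between 0.898 and 1.15.

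In the PFC, 0 of 9 members passed an adjusted p-value under 0.1 with a log2FC beyond 0.2, beside 0.0864% of 17364 genes. With no adjustment 3 members had a p-value under 0.05 in edgeR (Olfml3, Csf1r and Aif1), beside 7.64% of all genes, and DESeq2 called 0 members. Other settings did call members, all higher. Among them, edgeR with no filter on low counts called Aif1 (adjusted p = 0.0492) and Olfml3 (adjusted p = 0.0514). Of all genes, 297 were then called higher and 115 lower. With a factor of unwanted variation Aif1 was called (edgeR adjusted p = 0.0995), beside 208 genes higher and 107 lower. Without sc-control replicate 4, Olfml3, Fcrls and Aif1 were called, beside 195 higher and 6 lower. These compare with 15 and 0 when none of these changes was made. Without such changes the median log2FC of the members was 0.20, beside 0.0025 over all genes. Aif1 was at 12.8, 12.2 and 11.0 CPM in the 3 mice with anti-miR-99b, and 8.52, 7.47 and 10.0 in the 3 with sc-control, the only member whose groups did not overlap, as was so for 13.3% of all genes in either direction. Its log2FC was 0.46 (0.13, 95% confidence interval 0.18 to 0.74, edgeR adjusted p = 0.395). Markers of other cell types moved too, with none called in these lists. The summed level of 4 fibroblast markers was 50.6 to 53.5 CPM with anti-miR-99b and 38.8 to 49.6 with sc-control, 18.2% higher by the means, with groups that did not overlap. That of 3 neutrophil markers was 1.06 to 2.10 and 0.669 to 1.26 CPM, 66.2% higher, with Ly6g at 0 to 1 reads. The border macrophage and monocyte sum was 15.7 to 17.1 and 12.8 to 19.3 CPM. The part of such cells in the PFC values was not tested.

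Olfml3 was at 42.5, 41.8 and 37.2 CPM with anti-miR-99b and at 28.5, 28.9 and 37.4 with sc-control (0.35, 0.11, adjusted p = 0.536). Csf1r was at 165, 172 and 154 CPM against 128, 132 and 157 (0.24, 0.09, adjusted p = 0.639). In both, sc-control replicate 4 reached the range of the anti-miR-99b mice, while the other controls were below it. Fcrls had the same form, at 54.2, 55.6 and 45.0 CPM against 33.8, 37.2 and 54.1 (0.31, 0.16, adjusted p = 0.660).

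P2ry12 and Gpr34 had negative values and the widest spread. P2ry12 was at 22.1, 30.3 and 37.3 CPM with anti-miR-99b and at 32.2, 25.5 and 41.2 with sc-control (−0.14, interval −0.58 to 0.30), and Gpr34 at 4.25, 11.3 and 13.9 against 11.2, 8.77 and 15.9 (−0.28, interval −1.04 to 0.49). In anti-miR-99b replicate 1 these 2 genes were at their lowest and Aif1 and Olfml3 at their highest. Tmem119 was at 33.94, 34.99 and 33.94 against 28.6, 26.1 and 34.5 CPM (0.20, 0.10), Cx3cr1 had 0.15 (0.08) and Sall1 0.15 (0.08).

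Sc-control replicate 4 was the highest of the 3 controls for all 9 members. The sum of the 13 myeloid reference genes was 436 CPM in this mouse, 287 and 279 CPM in the other controls, and between 411 and 454 CPM after anti-miR-99b. This library and anti-miR-99b replicate 3 were sequenced in lane 7 and the other 4 in lane 6. Within lane 6, 2 mice against 2, the ratio of anti-miR-99b to sc-control was 1.297 for Csf1r, 1.47 for Olfml3 and 1.56 for Aif1. Within lane 7, 1 mouse against 1, it was 0.981, 0.994 and 1.09. Without sc-control replicate 4, edgeR called 3 members higher: Olfml3 (0.49, adjusted p = 0.0542), Fcrls (0.54, adjusted p = 0.0700) and Aif1 (0.58, adjusted p = 0.0895). Of all genes, 195 were called higher and 6 lower in that fit. With libraries scaled to the 14 reference genes the median of all genes was −0.29, and Tmem119, Cx3cr1, Sall1 and Csf1r turned to negative values of −0.13 to −0.04, with 41 of all genes called higher and 51 lower, against 15 and 0 with TMM.

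**Figure D4:**
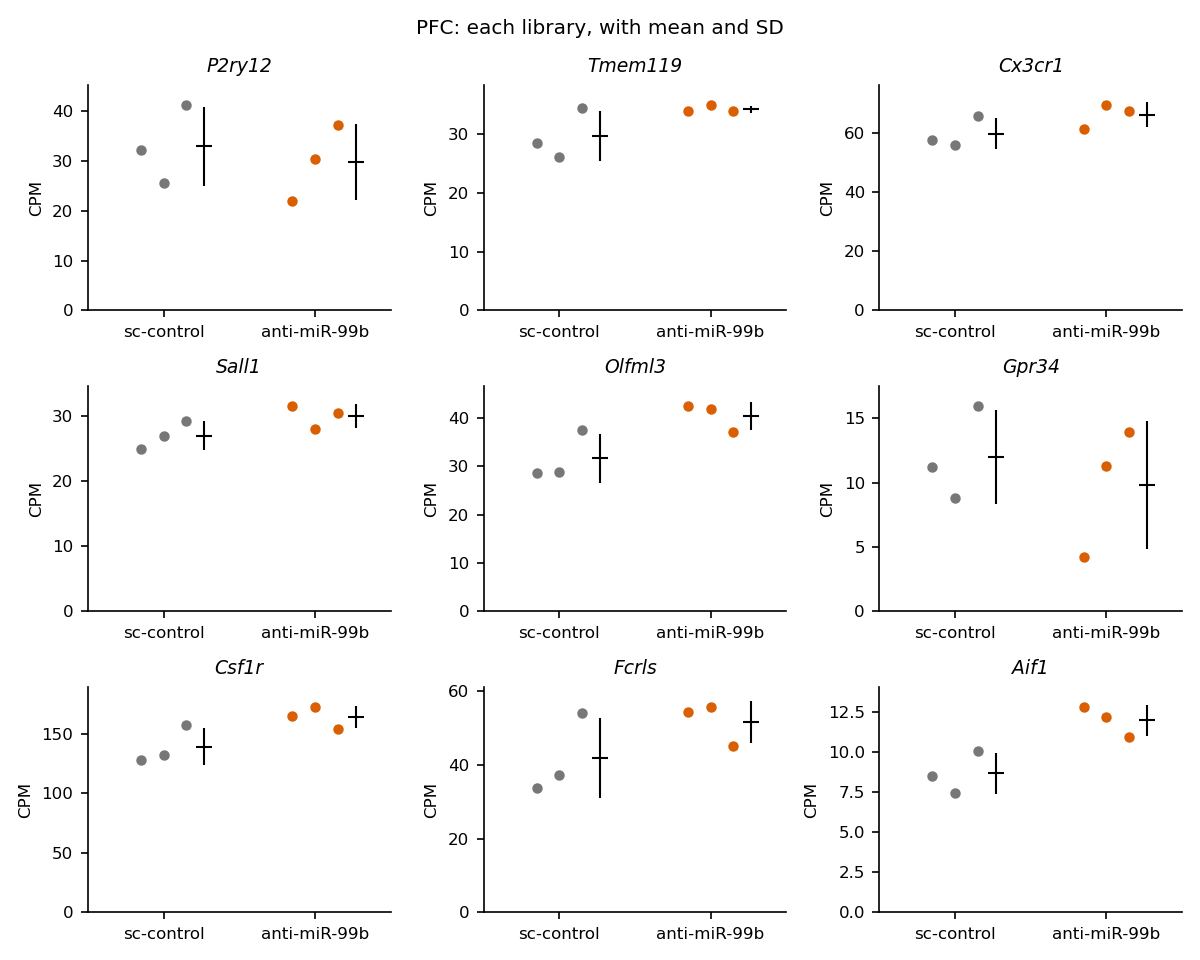
CPM of each member in the 6 PFC libraries, 1 point per mouse with a bar at the mean, each panel with its own linear axis. Among the controls the point of replicate 4 is the highest in all 9 panels, and only for Aif1 are all anti-miR-99b points (11.0 to 12.8 CPM) above all sc-control points (7.47 to 10.0 CPM).

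The genes around the members gave no call in the PFC either. With edgeR 0 of 20 other homeostatic genes, 0 of 10 disease-associated genes, 0 of 11 TGF-beta pathway genes and 0 of 8 transcription factors passed, with 9, 3, 2 and 2 at an unadjusted p-value under 0.05. The ligands Csf1 (0.17), Cx3cl1 (0.01) and Il34 (−0.06) were not called. In the microglia these lists had 0 calls too, with 0, 1, 1 and 0 at an unadjusted p-value under 0.05, and Csf1 had 0.05 and Cx3cl1 0.16, while Il34 was too low to be tested.

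Whether the effect of anti-miR-99b differed between systems was tested as a difference of effects in a fit over all 29 libraries. Of the 9 members, 0 passed an adjusted p-value under 0.05 in any of the 3 differences with edgeR or with DESeq2. The 3 differences share libraries with each other. All genes gave 0.0844% for co-culture minus microglia, 0.469% for PFC minus microglia and 0.791% for co-culture minus PFC. With no adjustment, 3, 4 and 4 members had a p-value under 0.05, beside 5.49%, 11.9% and 15.0% of all genes.

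The effect in co-culture was above that in microglia by 0.35 for Cx3cr1 (0.10, adjusted p = 0.268), 0.27 for Csf1r (0.07, adjusted p = 0.290) and 0.41 for Olfml3 (0.12, adjusted p = 0.432) on the log2 scale. When the fit held only these 2 experiments, the difference for Csf1r passed (0.28, adjusted p = 0.0271). The effect in the PFC was above that in microglia by 0.31 for Olfml3 (0.09, adjusted p = 0.111) and 0.41 for Aif1 (0.12, adjusted p = 0.120). The effect in co-culture was below that in the PFC by a difference of −0.25 for Sall1 (0.08, adjusted p = 0.140), −0.33 for Aif1 (0.12, adjusted p = 0.172) and −0.27 for Fcrls (0.12, adjusted p = 0.284), and above it by 0.24 for Cx3cr1 (0.11, adjusted p = 0.289). The difference was positive for 5 of the 9 members. Without PFC sc-control replicate 4, 4 members passed for PFC minus microglia and 1, Fcrls (−0.50, adjusted p = 0.00184), for co-culture minus PFC. Without PFC anti-miR-99b replicate 3, 2 members passed for PFC minus microglia. These fits of differences, and the fit of 2 experiments, are given without their calls over all genes. Their counts of members thus have no share of all genes beside them. In the PFC effect itself, which is another test, calls over all genes were 195 higher and 6 lower without sc-control replicate 4. Without anti-miR-99b replicate 3 they were 31 and 1, against 15 and 0 with all libraries.

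**Figure D5:**
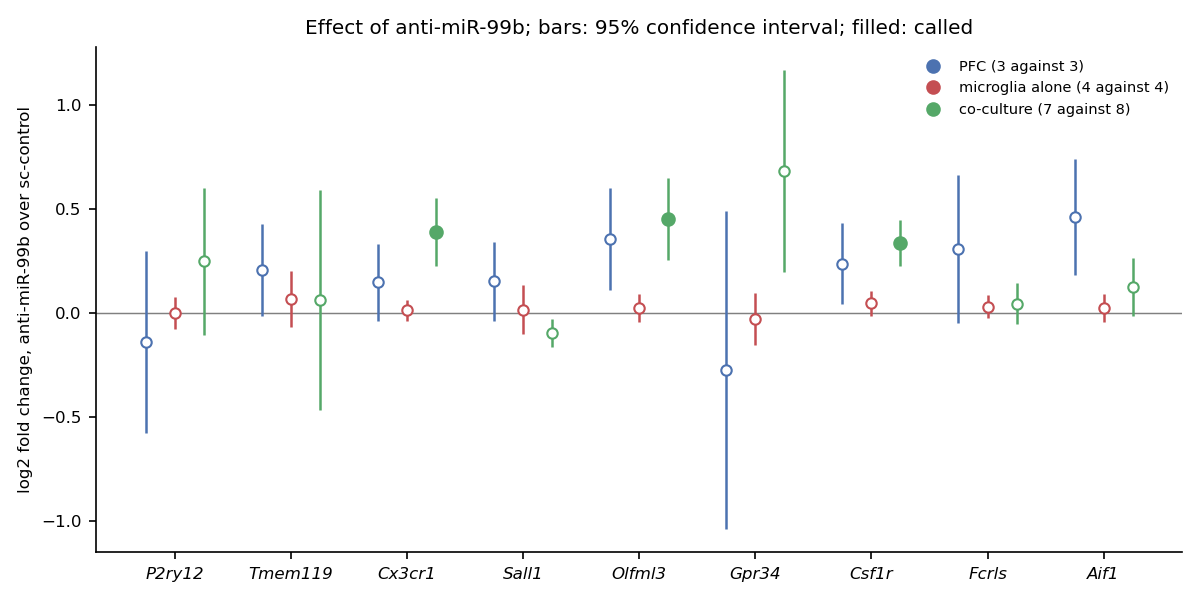
The log2FC of anti-miR-99b against sc-control for each member in PFC, microglia and co-culture, with bars for the 95% confidence interval. Filled points passed the threshold. In co-culture the intervals of Csf1r, Cx3cr1, Olfml3 and Gpr34 lie above 0 and that of Sall1 below, in the PFC those of Aif1, Olfml3 and Csf1r lie above 0, those in microglia all include 0, and with scaling to 14 myeloid reference genes the PFC values of Tmem119, Cx3cr1, Sall1 and Csf1r turn negative.

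The members did not vary as 1 block between libraries. The labels do not say whether the 15 co-cultures share a preparation, and P2ry12, Tmem119 and Gpr34 had at most 29 reads per library there. Over these libraries Pearson's r of log2(CPM + 0.5) between members, after removing group means, had a median of 0.248 over 36 pairs. It ran from −0.540 for Sall1 with Aif1 to 0.700 for Fcrls with Aif1, and r with Sall1 was positive for 1 of the 8 other members. In the 6 PFC libraries the median was 0.623, with Csf1r and Fcrls at 0.990 and P2ry12 and Gpr34 at 0.941. Over the 8 microglia libraries it was 0.0874. The genes most like the mean of the members over the 15 co-cultures, among 11503 genes with a mean of at least 5 CPM, were Vsir (r = 0.857), C1qb (0.834), Casp1 (0.802), Cstb (0.795) and Itgb2 (0.784).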

How the data were processed

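Polyadenylated RNA of 29 libraries was sequenced as 50 bp single reads (TruSeq RNA kit v2, HiSeq2000). Per the labels, the authors used bcl2fastq 2.20.2, FastQC 0.11.5, STAR 2.5.2b on mm10 and featureCounts 1.5.1, and they deposited raw counts per Ensembl gene in 3 tables of 48709 rows, without normalization. The annotation release and strand setting are not given in the sources used here. Symbols and exon lengths of GENCODE M21 (GRCm38) matched 48349 rows. Groups were taken from the labels, and lanes from the library names in them.

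Counts were tested with edgeR 4.0.16 (R 4.3.3), by its quasi-likelihood test on TMM-scaled libraries after its filter on low counts, with Benjamini-Hochberg adjustment over all genes tested. Calls needed an adjusted p-value under 0.1 in PFC (log2FC beyond 0.2) and microglia (beyond 0.1), and under 0.05 in co-culture (beyond 0.1), between systems (beyond 1) and for differences of effects. Treatment effects were fitted within each experiment, systems over the 15 sc-control libraries and differences of effects over all 29. The number after a log2FC is its standard error. Each of the 9 members was named in every comparison, with at most 4 called genes per other list, the ligands, overlapping genes and the 5 genes most like the members in co-culture. Siglech and the markers of other cell types were named after their values were seen. Of the other homeostatic genes, 1 is counted in its list and is not reported here by name. The members and lists were chosen with earlier results of these data known.

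Alternatives were DESeq2 1.42.0, RLE or upper-quartile factors or library totals, scaling to myeloid reference genes, a factor of unwanted variation (RUVs), other filters (none beyond a total of 1, or 10 counts or more in every library), lane or replicate number as a block, fits on fewer groups, and each library left out in turn. The 13-gene scaling was added after seeing the data. On simulated counts, for PFC, microglia and co-culture, 34.7%, 79.8% and 82% of genes changed by 1.3 times were recovered, and 92.9%, 92.9% and 97.9% of those changed by 2 times. In the same runs 23, 20 and 8 unchanged genes were called. The changed genes were drawn at random, with the spread typical of genes at their level. Recovery was thus not measured for the members themselves. Depth was 21324156 to 37901110 counts per library.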

Additional observations from a re-analysis of the deposited data

Results flagged for a closer look

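Among the 9 members in the groups of 4 to 10 libraries (36 sets of values), 1 library stood apart. Gpr34 was at 0.0379 CPM in sc-control replicate 12 of the co-cultures, from 1 read, and the nearest of the other 7 controls was at 0.422 CPM. The gap was 0.661 of the range of the group, above the limit of 0.526 for 8 libraries. Chance alone gives about 1 such set in 20. Without this library the log2FC of Gpr34 in co-culture was 0.52 (edgeR adjusted p = 0.198), against 0.68 with it.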

How the results depend on the processing

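With DESeq2, RLE or upper-quartile factors, a lane block and a filter of 10 counts in every library, the counts of called members stayed at 0 of 9 in PFC and microglia and 3 in co-culture, where that filter left 7 members to test. In PFC the count was 2 with no filter on low counts and 1 with a factor of unwanted variation, and leaving out a library gave 0 to 3 (3 without sc-control replicate 4). In co-culture it was 5 with scaling to 14 myeloid reference genes and 6 with 13, and leaving out a library kept it at 3. Microglia against co-culture fell from 8, all higher, to 7 with 14 genes (5 of them higher) and 5 with 13 (3 of them higher). Microglia against PFC went from 7, all higher, to 5 with either set, of which 0 were higher. Co-culture against PFC went from 6, of which 0 were higher, to 7 with either set, of which 1 was higher. With 14 genes, 17391 of all genes were called lower in microglia than in co-culture and 17055 lower than in PFC. Co-culture minus microglia gave 1 with only the 2 experiments in the fit. Without 1 library the counts ran from 0 to 4 for PFC minus microglia and from 0 to 1 for co-culture minus PFC. Calls over all genes in these fits of differences are not given here. The causes were not tested. Reads per library limit P2ry12, Tmem119 and Gpr34 in co-culture (at most 29).

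The labels do not say whether libraries with the same replicate number belong together, and 2 to 4 pairs per experiment cannot settle it. Deviations of libraries with the same number correlated at −0.003 to 0.048 in co-culture (4 pairs), −0.025 and −0.018 in microglia and −0.2 and 0.022 in PFC (2 pairs each). With the replicate block, which keeps only libraries whose number is in both groups, 5 members were called in PFC, 0 in microglia and 1 (Csf1r) in co-culture, where Cx3cr1 had 0.29 (adjusted p = 0.0632) and Olfml3 0.39 (adjusted p = 0.371). The block turned P2ry12 to 0.23 and Gpr34 to 0.34 in PFC, P2ry12 to 0.0114, Gpr34 to 0.043, Cx3cr1 to −0.0101 and Sall1 to −0.0224 in microglia, and Tmem119 to −0.42 and Fcrls to −0.0301 in co-culture.

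Scaling to 14 and 13 reference genes turned these log2FC (14 first). In PFC they were Tmem119 −0.0653 and −0.19, Cx3cr1 −0.13 and −0.26, Sall1 −0.13 and −0.26, Csf1r −0.041 and −0.17, and with 13 only Olfml3 −0.037 and Fcrls −0.0663. In microglia they were Cx3cr1 −0.019 and −0.02, Sall1 −0.0178 and −0.0186, Olfml3 −0.0085 and −0.0095, Fcrls −0.00091 and −0.0019, Aif1 −0.0067 and −0.0077. In co-culture they were Tmem119 −0.0553 and −0.11, Fcrls −0.0791 and −0.14 (called with 13), and with 13 Aif1 −0.0544. For microglia against co-culture they were Tmem119 −0.26 and −0.89, Sall1 −5.01 and −5.64, Fcrls −0.35 and −0.98, Aif1 −1.16 and −1.79. For microglia against PFC they were P2ry12 −3.58 and −4.05, Cx3cr1 −0.0463 and −0.53, Sall1 −4.17 and −4.65, Olfml3 −2.17 and −2.64, Gpr34 −1.96 and −2.42, Csf1r −0.10 and −0.58, and with 13 Fcrls −0.37 and Aif1 −0.33. For co-culture against PFC, Fcrls was 0.44 and 0.61. Among other settings, P2ry12 in microglia was 0.0036 with no filter and 3.17e-05 with the lane block, Tmem119 in co-culture −0.0379 with the lane block, and Fcrls for co-culture minus microglia 0.0022 with RLE and 0.0049 with DESeq2.

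Leaving out 1 library turned the sign of values near 0. In PFC the ranges were −0.33 to 0.0514 for P2ry12 and −0.62 to 0.0726 for Gpr34. In microglia they were −0.0242 to 0.0316 for P2ry12, −0.0373 to 0.0572 for Sall1, −0.0912 to 0.0256 for Gpr34 and −0.0018 to 0.0539 for Aif1. In co-culture Tmem119 ran from −0.0554 to 0.21. For differences of effects, co-culture minus microglia ran from −0.0971 to 0.0201 for Tmem119 and −0.0249 to 0.0087 for Fcrls, PFC minus microglia from −0.36 to 0.0343 for P2ry12 and −0.61 to 0.0768 for Gpr34, and co-culture minus PFC from −0.0397 to 0.17 for Olfml3. Over all settings, 1489 values for single members kept their direction and their side of the threshold and 87 changed sign.

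Over all genes, calls in PFC (15 higher, 0 lower) were 76 and 8 with DESeq2, 297 and 115 with no filter, 208 and 107 with the factor of unwanted variation, 73 and 4 with the lane block, 475 and 43 with the replicate block and 1 to 195 higher without 1 library. In microglia (65 and 8) they were 138 and 29 with no filter, 116 and 42 with the factor, 87 and 162 with the replicate block and 0 to 234 higher without 1 library. In co-culture (137 and 90) they were 281 and 234 with the factor, 85 and 36 with the lane block, 70 and 23 with the replicate block, and 90 and 9763 with 13 reference genes.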
